A study of Mus musculus with 2 samples.

Results

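The nuclear genes for the oxidative phosphorylation machinery were followed across the cell types of mouse pancreatic tumours treated with vehicle or takinib. Members were chosen by gene symbol: those starting with Ndufa, Ndufb, Ndufc, Ndufs or Ndufv, with Sdha to Sdhd, with Uqcr, with Cox4 to Cox8, or with Atp5, leaving out pseudogene symbols and Ndufa4l2. The rule found 96 of the 32285 listed genes. By role these were 36 complex I subunits, 4 complex II subunits, 8 complex III subunits, 19 complex IV subunits including Ndufa4, 17 ATP synthase genes, and 12 assembly factors of complexes I and II.

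The tumours came from KPPC mice, a genetically engineered model of pancreatic ductal cancer; the labels do not spell out the alleles or the Cre driver. One library came from mice given vehicle and 1 from mice given takinib at 50 mg/kg. All mice were 6 weeks old and treatment lasted 14 days, per the labels, which give neither the number of mice per library nor their sex. Takinib inhibits TAK1 (gene Map3k7), a kinase that relays signals from cytokine and innate immune receptors to NF-kB. The question was how cells of these tumours differ after TAK1 inhibition. With 1 library per group there was no test and no replicate check, and brackets hold 95% intervals that cover counting error only.

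Oxidative phosphorylation takes electrons from NADH through complex I and from succinate through complex II, passes them by ubiquinone to complex III and by cytochrome c to complex IV, and uses the proton gradient so built to make ATP at the ATP synthase. Complexes I, III, IV and the ATP synthase combine nuclear-encoded subunits with a few encoded in mitochondrial DNA, while complex II is wholly nuclear-encoded. Some complex IV subunits exist as a broad form and a tissue-restricted form, such as Cox4i1 and Cox4i2 or Cox6b1 and Cox6b2. Nuclear respiratory factor 1 (NRF1) and the ETS-family factor GABP are known regulators of many of these genes.

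RefSeq promoter windows of 250 bases before to 50 bases after a gene's start (GRCm38.p6) were at hand for 79 of the 96 members, in 84 windows. The NRF1 word, GCGCA followed directly by its reverse complement TGCGC and so the same on both strands, was present in 7 of the 84 windows, 8.33%, against 0.971% of all 32851 windows. Those 7 windows belonged to Atp5g2, Atp5k, Cox6a1, Ndufa11, Ndufaf4, Ndufaf5 and Uqcrc1, which serve in ATP synthase, complex IV, complex I and its assembly, and complex III. The ETS word CCGGAAG, searched on both strands, was present in 26.2% of member windows and 8.86% of all windows. The E-box CACGTG was present in 7.14% against 7.15%, and TATAAA on either strand in 11.9% against 13.6%. A match describes the letters of a window and shows no binding. Below are 5 promoter stretches with NRF1 or ETS words in capitals, each the part nearest the start that lies outside any gene model of GENCODE M21. Cox6a1 shows the NRF1 word, and its window also has an ETS word 16 bases before the RefSeq start, inside the 23 bases left out. Atp5e and Uqcr11, whose levels were lower in takinib in all 8 classes compared, show the ETS word. Of other members lower in all 8, Uqcrh has that word in its window, while Ndufs6, Sdha, Uqcr10 and Atp5j2 do not. No link between word and direction was tested. Cox6b1 and Cox6b2 are a broad and a restricted form of the same subunit. The stretches lie on the minus strand at chr5:115348982-115349129, chr2:174464106-174464351, chr10:80406831-80407071, chr7:30626152-30626364 and chr7:4753095-4753225, in that order.
Cox6a1: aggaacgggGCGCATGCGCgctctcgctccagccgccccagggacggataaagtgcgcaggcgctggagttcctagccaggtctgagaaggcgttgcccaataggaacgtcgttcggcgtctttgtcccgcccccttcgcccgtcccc
Atp5e: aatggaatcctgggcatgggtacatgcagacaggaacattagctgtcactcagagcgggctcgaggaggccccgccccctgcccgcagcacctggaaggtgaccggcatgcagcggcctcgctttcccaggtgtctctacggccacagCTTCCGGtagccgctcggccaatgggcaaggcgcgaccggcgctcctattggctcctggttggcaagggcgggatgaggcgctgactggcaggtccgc
Uqcr11: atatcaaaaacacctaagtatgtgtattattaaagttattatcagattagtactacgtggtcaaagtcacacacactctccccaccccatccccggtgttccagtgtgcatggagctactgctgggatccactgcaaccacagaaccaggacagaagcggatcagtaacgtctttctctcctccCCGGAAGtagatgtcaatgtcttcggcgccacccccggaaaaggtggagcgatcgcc
Cox6b1: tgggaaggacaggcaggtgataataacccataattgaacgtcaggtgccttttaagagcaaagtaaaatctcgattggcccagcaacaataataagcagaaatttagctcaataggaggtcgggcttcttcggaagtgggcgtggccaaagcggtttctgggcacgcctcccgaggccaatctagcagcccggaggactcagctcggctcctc
Cox6b2: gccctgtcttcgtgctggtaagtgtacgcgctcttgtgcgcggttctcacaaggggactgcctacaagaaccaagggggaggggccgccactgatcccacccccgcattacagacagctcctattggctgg
Neither Cox6b stretch holds either word, although the full Cox6b1 window has an ETS word 28 bases before the RefSeq start, inside the 37 bases left out because the GENCODE gene model covers them.

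The libraries differed in ways that touch every value below. After filtering, 9558 vehicle cells with a median of 3556 UMIs (unique molecules) and 25183 takinib cells with a median of 2887 UMIs were kept, 42000538 and 119726977 UMIs in all. Vehicle cells carried a median of 8.70% mitochondrial UMIs and takinib cells 1.79%. The kept libraries shared 359 cell barcodes. Of 1097 vehicle epithelial-like cells, 122 had Xist UMIs and no Y-linked UMIs. With only these vehicle cells, the epithelial-like summed log2 ratio given below was 0.03 rather than -0.18. The part of sex in any difference between the libraries was not tested. Cells fell into 26 clusters, named "like" a cell type from marker genes, and 3 clusters stayed unnamed. All 12 epithelial markers had counts in the pooled epithelial-like cells of both libraries, which by itself does not set this class apart. Among the 10 leading genes of its clusters, the Tnc-led, Mir100hg-led and Spink4-led ones held 0 epithelial markers and the Gkn2-led one held 1. An unnamed cluster led by Dmbt1 had epithelial markers as its best match with acinar markers close behind. An unnamed cluster led by Ppy held 4697 takinib cells and 1 vehicle cell. The best match of the Ppy-led cluster was neutrophil markers, with 6 detected, and 1.49% of its takinib UMIs came from members. It was left out of the neutrophil-like class. With every cluster named by its best match, the neutrophil-like summed log2 ratio given below was -0.95 rather than -1.15. The neutrophil genes S100a8 and S100a9 together stood at 84.3 CPM (UMI counts scaled to a total of 1000000) among vehicle fibroblast-like cells and 8566.2 CPM among takinib ones, and were higher in takinib in the other classes compared too; taking a neutrophil profile out of the takinib classes left the summed log2 ratios given below at 0.27 (from 0.21) in fibroblast-like, -0.13 (from -0.18) in macrophage/monocyte-like and -0.14 (from -0.18) in epithelial-like cells. It moved them further in proportion in B-like cells, to -0.08 from -0.33, and in T-like cells, to -0.06 from -0.14. Dendritic-like cells went to -0.11 from -0.14, and the Dmbt1-led cluster changed sign, to 0.06 from -0.01.

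Over all kept cells, the 96 members made up 2.65% of UMIs in vehicle [2.64, 2.65] and 2.15% in takinib [2.14, 2.15]. In vehicle the macrophage/monocyte-like cells were highest at 2.81% [2.80, 2.81], followed by the cluster led by Dmbt1 at 2.74% and epithelial-like cells at 2.69%. Dendritic-like cells at 2.63% [2.58, 2.69] and perivascular-like cells at 2.61% [2.59, 2.63] had overlapping intervals. Next came T-like cells at 2.22% [2.17, 2.27] and neutrophil-like cells at 2.20% [2.15, 2.25], which also overlapped. Fibroblast-like cells stood at 2.07%, B-like cells at 1.92% and endothelial-like cells lowest at 1.79% [1.78, 1.81]. In vehicle, macrophage/monocyte-like, dendritic-like and epithelial-like cells thus stood above T-like, B-like, fibroblast-like and endothelial-like cells as a share of all UMIs. For epithelial-like against T-like cells this order depended on the total used. Over UMIs outside mitochondrial and ribosomal protein genes, vehicle T-like cells had 3.45% and epithelial-like cells 3.29%. Macrophage/monocyte-like cells at 3.68% and dendritic-like cells at 3.58% stayed above T-like cells.

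In takinib the highest class was erythroid-like cells at 3.16% [3.14, 3.18], a class with 1 cell in vehicle. That place held for pooled UMIs only: the mean over erythroid-like cells was 2.40% and the median 2.28%, below 2.68% and 2.66% in the cluster led by Dmbt1. Of pooled UMIs, the cluster led by Dmbt1 stood at 2.73%, macrophage/monocyte-like cells at 2.47%, fibroblast-like cells at 2.39% [2.37, 2.41], and epithelial-like and dendritic-like cells both at 2.38%. T-like cells had 2.02%, granulocyte precursor-like cells 1.96%, B-like cells 1.53% and plasma-like cells a share within [1.48, 1.51]. Neutrophil-like cells were lowest at 0.994% [0.990, 0.998], less than in any other class of at least 100 cells. Of the 96 members, 55 had their highest pooled takinib level in erythroid-like cells and 76 their lowest in neutrophil-like cells.

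**Figure D1:**
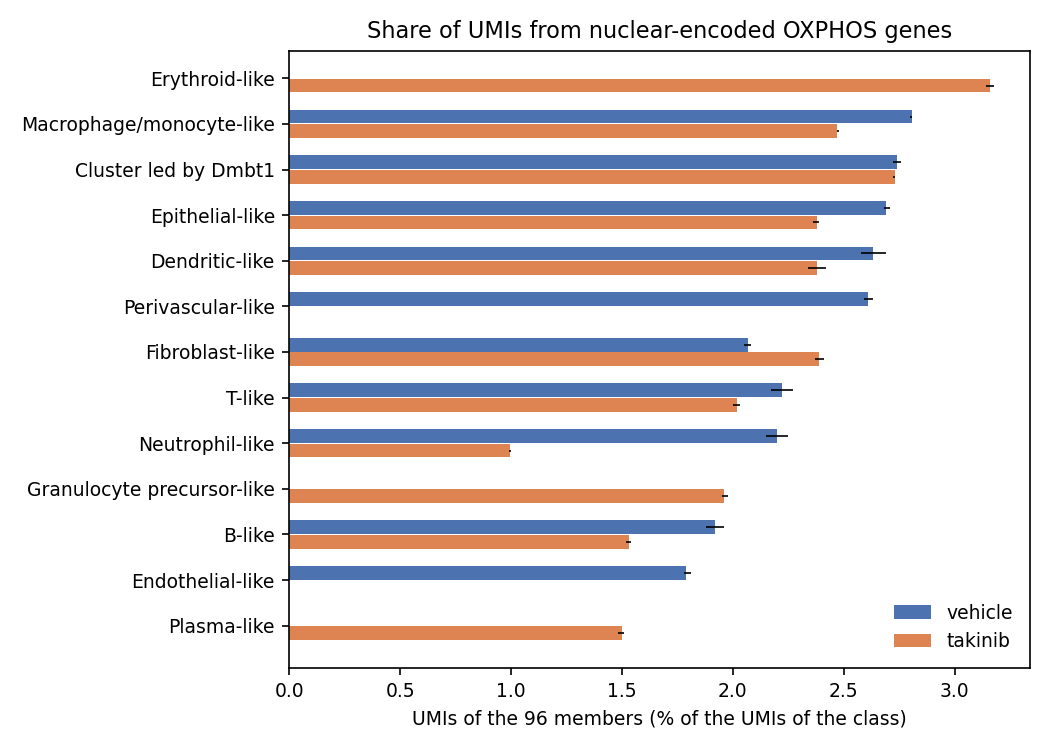
Share of pooled UMIs from the 96 members (horizontal axis, percent) in each class with at least 100 cells of a library; bars are vehicle and takinib, black lines are 95% exact binomial intervals for counting error. Takinib neutrophil-like cells stand lowest at 0.994% and takinib erythroid-like cells highest at 3.16%.

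Levels also varied between clusters of one class. Within neutrophil-like cells of takinib, the cluster led by Retnlg had 1.20% of its UMIs from members, the cluster led by Ccl4 0.878% and the cluster led by Ctsk 3.39%. Within vehicle epithelial-like cells, the cluster led by Mir100hg had 0.444%, with 14.5% of its UMIs mitochondrial, and the cluster led by Tnc had 2.61%. Takinib B-like cells comprised 2 clusters both led by Cd79a, with 1.87% and 1.30%. The second held 568 takinib and 2 vehicle cells, and neutrophil markers were its second match (score 0.29, against 0.421 for B markers). S100a8 and S100a9 together stood at 3855.7 CPM in takinib cells of the first cluster and 44337.5 CPM in the whole takinib class. Vehicle barcodes of 1 to 99 UMIs, which are mostly empty droplets, gave 1.63% [1.60, 1.66], so a share near that level can hold free RNA; the takinib matrix listed no such barcodes.

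The split of the member UMIs among the complexes was much alike in classes that differed in total. In vehicle complex I made up 25.4% to 30.7% of member UMIs, complex IV 25.9% to 31.9% and the ATP synthase 29.2% to 33.1%. Complex II made up 1.24% to 1.75% and complex III 7.75% to 11.4%. The takinib ranges were 24.6% to 31.0% for complex I, 26.4% to 33.7% for complex IV and 29.4% to 32.1% for the ATP synthase. Complex III ranged from 9.15% to 10.3% in takinib. Vehicle neutrophil-like cells set the low end for complex III at 7.75%, and vehicle fibroblast-like and takinib plasma-like cells the high ends for complex I.

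Cox4i2, the alternative form of complex IV subunit 4, was the most restricted member in vehicle, among those with at least 50 counts in their highest class (mm10 chr2:152754173-152765037, plus strand). In vehicle it gave 456 counts in perivascular-like cells, 203 CPM [185, 223], and 44.2% of those 591 cells had a UMI [40.1, 48.3]. The next highest class, neutrophil-like cells, had 1 count. T-like, B-like and dendritic-like cells had 0, which allows up to 8.46, 7.34 and 8.51 CPM at 3 counts. Macrophage/monocyte-like cells, at a median of 3885 UMIs against 3092 in perivascular-like cells, had a UMI of Cox4i2 in 0.278% of cells. In takinib, where there were 14 perivascular-like cells, 6 of them had a UMI. Cox4i2 also appeared there in plasma-like cells at 29.9 CPM [22.7, 38.6], in 31 of 200 cells. Among takinib classes of at least 100 cells its CPM ratio of highest to second class was 1.83, against 11.0 for Cox6b2. In epithelial-like cells Cox4i2 stood at 2.32 CPM [1.35, 3.71] in vehicle and 16.3 CPM [12.1, 21.5] in takinib, where the counts came from 12 cells with up to 11 UMIs in a cell. In fibroblast-like cells it stood at 0.366 CPM in vehicle and 8.81 CPM in takinib, from 11 takinib cells.

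Cox4i1, the broad form of that subunit (chr8:120668222-120674207, plus strand), was present in every class, from 676 CPM in endothelial-like to 1483.1 CPM in macrophage/monocyte-like cells of vehicle and from 491 CPM in neutrophil-like to 1413.0 CPM in the cluster led by Dmbt1 of takinib. The Cox4i1 model overlaps Emc8 on the opposite strand and Gm20388 on its own, and whether counting used strand is not given in the sources used here.

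Cox6b2, the form of subunit 6B known from testis (chr7:4751792-4753094, minus strand), was highest in vehicle in fibroblast-like cells at 65.2 CPM [56.0, 75.5], where 19.3% of cells had a UMI, and next in perivascular-like cells at 29.4 CPM [22.7, 37.4]. In takinib Cox6b2 was highest in erythroid-like cells at 170 CPM [157, 184], with a UMI in 36.1% of cells, followed by granulocyte precursor-like cells at 15.5 CPM. Takinib fibroblast-like cells had 11.9 CPM [8.60, 16.1], below the vehicle fibroblast-like cells. As a background level, 0.224% of takinib neutrophil-like cells (median 2130 UMIs) had a UMI of Cox6b2, against a median of 4819.5 UMIs in erythroid-like cells. Cox6b1, the broad form, ranged from 324 to 618 CPM in vehicle and from 265 to 681 CPM in takinib.

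The muscle forms of complex IV subunits were scarce. Cox7a1 reached at most 15.5 CPM, in vehicle epithelial-like cells, and Cox6a2 at most 4.63 CPM, in takinib plasma-like cells. Cox8b had 1 count in the vehicle classes of at least 100 cells. Cox7b2, Cox8b and Cox8c passed the low-count filter in no class, and 2 members had no count in any class compared. Among members with at least 50 counts in their highest class, those with the largest CPM ratio of highest to second class in vehicle after Cox4i2 and Cox6b2 were Ndufv3 at 1.46, Ndufs4 at 1.39 and Cox7a1 at 1.35. Ndufa4, a complex IV subunit first assigned to complex I, had an uneven spread: 601 CPM in the cluster led by Dmbt1, 488 CPM in T-like cells and 130 CPM in macrophage/monocyte-like cells of vehicle.

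**Figure D2:**
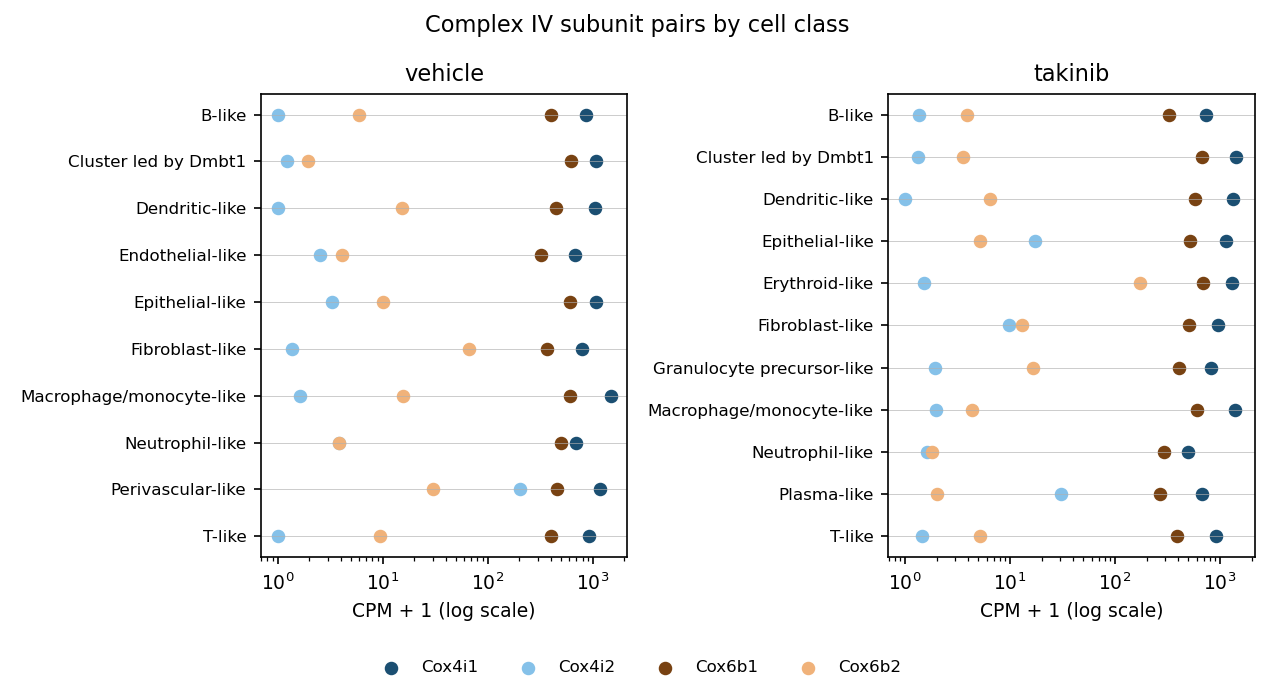
Level (CPM + 1, log axis) of Cox4i1, Cox4i2, Cox6b1 and Cox6b2 in each class with at least 100 cells, vehicle on the left and takinib on the right; each point is 1 class of 1 library. In vehicle neutrophil-like cells Cox4i2 lies behind Cox6b2 at the same 2.87 CPM; Cox4i2 stands out in vehicle perivascular-like cells at 203 CPM and Cox6b2 in takinib erythroid-like cells at 170 CPM.

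The 3 genes for subunit c of the ATP synthase, the ring that turns with the proton flow, were each present in every class. Atp5g1 ranged from 137 to 335 CPM in vehicle, Atp5g2 from 267 to 555 CPM and Atp5g3 from 336 to 917 CPM. Atp5g2 was highest in vehicle B-like cells, where Atp5g1 was among its lower levels at 179 CPM, while Atp5g3 and Atp5g1 were highest in vehicle epithelial-like cells. These genes encode the same mature protein and related sequences exist in the genome, so their split depends on the authors' read assignment.

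Among the 8 classes for which both libraries held 100 cells or more, 7 had a lower summed member level in takinib and 1, fibroblast-like, a higher one. As log2 of the takinib over the vehicle level, the sum was -1.15 [-1.18, -1.11] in neutrophil-like, -0.33 [-0.36, -0.29] in B-like, -0.18 in macrophage/monocyte-like and epithelial-like, and -0.14 in dendritic-like and T-like cells. It was -0.01 [-0.02, 0.00] in the cluster led by Dmbt1 and 0.21 [0.19, 0.22] in fibroblast-like cells. The median of all genes past the low-count filter was itself -0.42 in neutrophil-like cells, -0.11 in B-like and fibroblast-like cells and between -0.09 and -0.01 in the others. Relative to that median the sums were -0.72 in neutrophil-like, -0.21 in B-like and 0.32 in fibroblast-like cells, while the Dmbt1-led cluster turned to 0.01. Over the processing alternatives that gave a value for the whole class, fewer for neutrophil-like and T-like cells, the sum stayed above 0 in fibroblast-like cells (0.12 to 0.32) and below 0 in macrophage/monocyte-like (-0.30 to -0.11), neutrophil-like (-1.41 to -0.72), B-like (-0.69 to -0.04), T-like (-0.59 to -0.05) and dendritic-like cells (-0.24 to -0.09). It changed sign in epithelial-like cells (-0.28 to 0.03) and in the Dmbt1-led cluster (-0.16 to 0.12).

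For single members the ratio below is log2 of takinib CPM + 10 over vehicle CPM + 10, given for genes with at least 20 expected counts in the shallower library. Intervals for single genes are of the plain CPM ratio without the added 10, so for scarce genes they can lie beside the printed value. Of the 96 members, 65 passed that filter in every class. In the 7 classes other than neutrophil-like, 75 members passed in all: 9 of these lay on the same side of 0 in every one of them, against 22.4% of the 1689 genes that passed in all 7. Below 0 in every one were 8, near the background of 9.41%, and above 0 in every one was 1. The 8 were Ndufb2 and Ndufs6 of complex I, Sdha of complex II, Uqcr10, Uqcr11 and Uqcrh of complex III, and Atp5e and Atp5j2 of the ATP synthase. The one above 0 was Sdhaf1, an assembly factor for the iron-sulphur subunit of complex II.

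**Figure D3:**
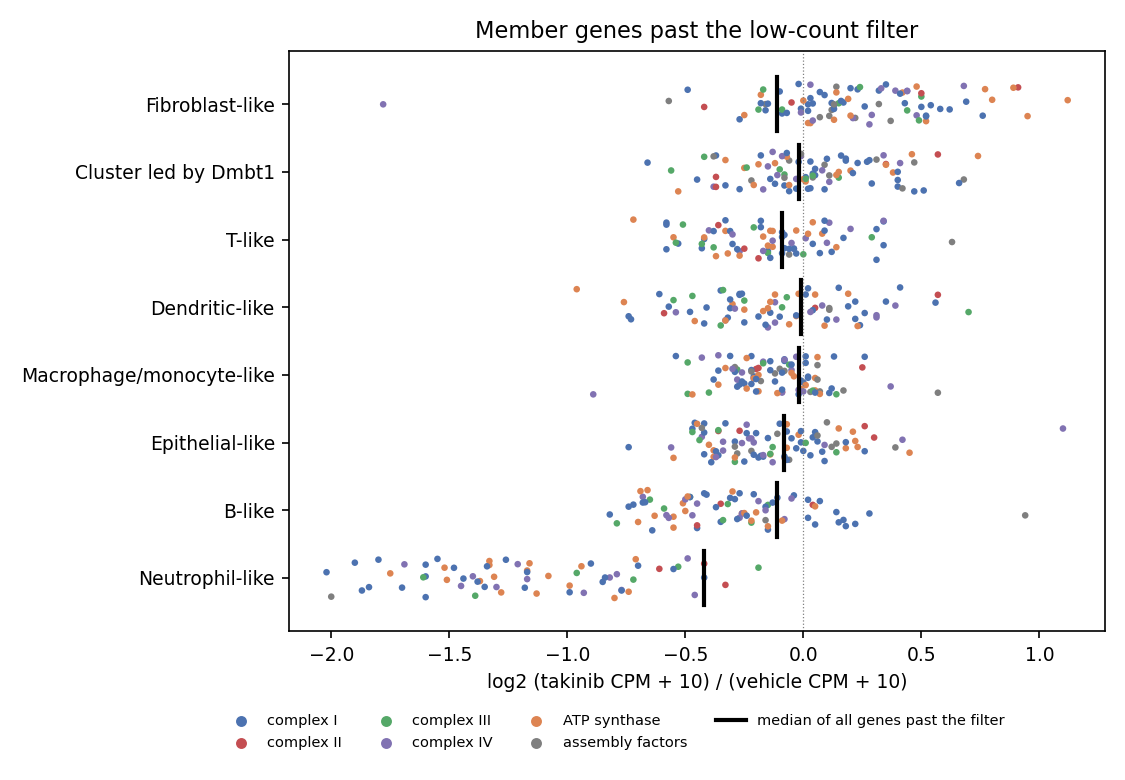
Log2 ratio of takinib over vehicle (horizontal axis, 10 CPM added to both) of each member past the low-count filter, by class; each point is 1 gene, coloured by complex, with vertical jitter only for legibility, and the black bar is the median of all genes past the filter. All 65 neutrophil-like members lie below 0, as do 67.2% of all genes there, and 66 of 88 fibroblast-like members lie above it, against 40.1% of all genes.

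Among complex I members, the sum was -0.16 in macrophage/monocyte-like and -0.18 in epithelial-like cells, 0.13 in fibroblast-like cells and 0.08 in the cluster led by Dmbt1. Ndufs6, a zinc-binding subunit of the peripheral arm, stood at 184 CPM in vehicle and 123 CPM in takinib macrophage/monocyte-like cells, a ratio of -0.54 [-0.64, -0.52]. It ranged from -0.74 in epithelial-like to -0.49 in fibroblast-like cells over the 7 classes and was -2.02 in neutrophil-like cells, where 190 CPM stood against 39.2 CPM. Ndufs6 (chr13:73319838-73328542, minus strand) overlaps Mrpl36 on the opposite strand, whose reads could not be told apart without strand.

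The core subunits that carry electrons in complex I did not share one direction. Ndufv1, which binds NADH, stood at 44.7 CPM in vehicle and 69.3 CPM in takinib fibroblast-like cells (0.54), and at 0.26 in macrophage/monocyte-like cells and 0.40 in the Dmbt1-led cluster. Ndufv2, its iron-sulphur partner, was at 0.76 in fibroblast-like, 0.66 in the Dmbt1-led cluster and 0.02 in B-like cells. Ndufs1, the largest iron-sulphur subunit, was at -0.27 in fibroblast-like, -0.37 in the Dmbt1-led cluster and 0.13 in macrophage/monocyte-like cells. None of these 3 genes passed the filter in neutrophil-like cells, and Ndufv1 and Ndufs1 passed it in neither B-like, T-like nor dendritic-like cells.

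Complex II subunits split as well. Sdha, the flavoprotein that oxidises succinate, was below 0 in every class compared, from -0.59 in dendritic-like to -0.20 in macrophage/monocyte-like cells, with 110 CPM in vehicle and 94.7 CPM in takinib in the latter. Sdhb, the iron-sulphur subunit, was at 0.91 [0.76, 1.28] in fibroblast-like cells, where 63.4 CPM stood against 128 CPM. The ratio of Sdhb was 0.57 in both the dendritic-like class and the Dmbt1-led cluster, 0.25 in macrophage/monocyte-like cells and -0.35 in B-like cells. The 2 genes of the catalytic part of the same complex therefore lay on opposite sides of 0 in 5 of the 8 classes.

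Complex III had a lower summed ratio than the members as a whole in 7 of the 8 classes, neutrophil-like cells being the exception. In macrophage/monocyte-like cells it stood at -0.32 [-0.34, -0.31] against -0.18 for all members, and in the Dmbt1-led cluster at -0.22 [-0.25, -0.19] against -0.01. Among its small subunits, Uqcr10, which sits beside the Rieske protein, stood at 452 CPM in vehicle and 320 CPM in takinib macrophage/monocyte-like cells (-0.49) and at -0.56 in the Dmbt1-led cluster, and Uqcrh, the hinge protein, at 766 and 543 CPM (-0.49). Uqcrc1, a core subunit, and Uqcrfs1, the Rieske iron-sulphur protein, stood at 0.04 and 0.14 in macrophage/monocyte-like cells and at 0.44 and 0.49 in fibroblast-like cells.

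Complex IV, where electrons reach oxygen, had a sum of -0.17 in macrophage/monocyte-like, 0.00 in the Dmbt1-led cluster and 0.27 [0.24, 0.30] in fibroblast-like cells. Cox4i1 stood at 1483.1 CPM in vehicle and 1399.0 CPM in takinib macrophage/monocyte-like cells (-0.08), and at 1064.2 and 1413.0 CPM in the Dmbt1-led cluster (0.41). Cox5a was at -0.43 in macrophage/monocyte-like and 0.68 in fibroblast-like cells, and Cox5b at -0.20 and 0.39. Cox8a was at -0.30 and -0.01, and Cox6a1 at -0.28 and 0.03 in the same 2 classes. Cox7a2l, a factor that links complexes III and IV into supercomplexes, was at 0.42 in epithelial-like, 0.34 in T-like and -0.57 in B-like cells. Cox6b2 had the lowest ratio in fibroblast-like cells (-1.78) and in macrophage/monocyte-like cells (-0.89, from 14.7 to 3.31 CPM).

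For the ATP synthase the sum was -0.17 in macrophage/monocyte-like, -0.39 in B-like and 0.29 [0.27, 0.32] in fibroblast-like cells. Atp5a1 and Atp5b, the catalytic ring of the F1 part, stood at 0.01 and 0.07 in macrophage/monocyte-like and at -0.69 and -0.55 in B-like cells. In fibroblast-like cells Atp5b stood at 223 CPM in vehicle and 423 CPM in takinib (0.89) and Atp5a1 at 247 and 274 CPM (0.14). Atp5e and Atp5j2, small subunits of the F1 stalk and the membrane part, were below 0 in all 8 classes, Atp5e at 1356.0 and 1053.5 CPM in macrophage/monocyte-like cells (-0.36). In macrophage/monocyte-like and fibroblast-like cells Atp5a1 and Atp5b thus lay above 0 while Atp5e and Atp5j2 lay below. Other subunits outside the catalytic ring did not share one direction. In the 7 classes other than neutrophil-like, Atp5d was above 0 in 5 and Atp5o in 6, while Atp5j was below 0 in 6.

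The 12 assembly factors were scarce, and between 1 and 12 of them passed the filter in a class. Sdhaf1 was at 0.94 in B-like, 0.63 in T-like and 0.57 in macrophage/monocyte-like cells, where it stood at 22.3 CPM in vehicle and 38.0 CPM in takinib. Their summed ratio lay between -0.05 and 0.20 in the 4 classes with at least 10 of them past the filter.

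In fibroblast-like cells, 66 of the 88 members past the filter were above 0, against 40.1% of all 10031 genes tested, and 10 were higher in takinib by at least 1.5-fold, against 9.51% of all genes. The count of 10 of 88 is near that background share. With the median gene set to 0 the count was 21, against 12.8% of all genes. One member, Cox6b2, was lower by that much, against 15.3%. Atp5o, which joins the 2 parts of the ATP synthase, stood at 175 CPM in vehicle and 392 CPM in takinib (1.12 [1.01, 1.32]). Atp5c1, the central stalk, stood at 125 and 251 CPM (0.95 [0.82, 1.18]). Takinib fibroblast-like cells were deeper, at a median of 7689.5 UMIs against 3299.0, and their fibroblast markers summed to 22501.5 CPM against 35258.7 CPM; the part of these differences in the result was not tested. Among cells with at most 10% mitochondrial UMIs the sum was 0.12.

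Among macrophage/monocyte-like cells, 68 of 92 members were below 0 against 53.8% of all genes, and 1, Cox6b2, was lower by at least 1.5-fold, against 3.46%. None was higher by that much, against 4.75%. In B-like cells 62 of 75 were below 0 against 57.9%, and 14 were lower by at least 1.5-fold against 18.5% of all genes. Sdhaf1 alone was higher by that much, against 18.1%. The lower members were thus near the background share in B-like cells. Among B-like cells the sum of 9 neutrophil markers was 851 CPM in vehicle, with Ly6g at 0, but 48225.9 CPM in takinib, with none at 0, while that of 6 B markers was 4785.2 and 3119.5 CPM. With the neutrophil profile taken out, the B-like sum was -0.08. The lowest in B-like cells were Ndufab1, the acyl carrier subunit of complex I (152 and 81.4 CPM, -0.82), and Uqcrc2, a core subunit of complex III (-0.79). In epithelial-like cells 65 of 91 were below 0 against 59.3%; Cox4i2 was the 1 higher by at least 1.5-fold, against 7.18%, and Ndufs6 the 1 lower, against 7.93%. In T-like cells 53 of 75 were below 0 against 57.8%; Sdhaf1 was the 1 higher, against 9.73%, and Atp5j2 the 1 lower, against 13.1%. In dendritic-like cells 47 of 75 were below 0 against 50.6%. Dendritic-like cells had 6 members lower by at least 1.5-fold, against 10.9% of all genes, led by Atp5j, a stalk subunit of the ATP synthase (548 and 277 CPM, -0.96), and Uqcrfs1 was the 1 higher (0.70), against 10.8%. In the Dmbt1-led cluster 42 of 89 were below 0 against 51.9%; Atp5c1, Sdhaf1 and Ndufv2 were the 3 higher by at least 1.5-fold, against 8.27%, and Ndufs6 the 1 lower, against 5.10%.

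In neutrophil-like cells all 65 members past the filter were below 0, against 67.2% of all genes, and 57 of them were lower by at least 1.5-fold, against 42.9%. By at least 2-fold 39 were lower, against 24.9%, and none was higher by 1.5-fold, against 17.2%. With the median gene set to 0, 39 were lower by at least 1.5-fold, against 24.6%. Cox8a stood at 2064.9 CPM in vehicle and 911 CPM in takinib, and Atp5g1 at 172 and 44.3 CPM. The cells compared were not the same kind: 97.4% of the 270 vehicle neutrophil-like cells were in the cluster led by Ctsk, while 71.2% of the 7137 takinib ones were in the cluster led by Ccl4 and 25.1% in that led by Retnlg. The class value therefore also measures which clusters it held.

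A comparison within single clusters, chosen after seeing the data, was possible for the 10 that held 100 or more cells from both libraries. In macrophage/monocyte-like cells the sum was at 0.01 in the clusters led by Atp6v0d2 and by Trf and at -0.07 [-0.08, -0.05] in that led by H2-Ab1, against -0.18 for the class. The class held different clusters in the libraries: 41.3% of its takinib cells were in the cluster led by U90926, at 2.21% of UMIs from members, while 55.7% of its vehicle cells were in that led by H2-Ab1, at 2.85%. In B-like cells the shared cluster was at -0.04 against -0.33 for the class. In epithelial-like cells the cluster led by Tnc was at -0.09 against -0.18. Of epithelial-like cells, 69.8% in vehicle and 48.0% in takinib were Tnc-led. The Mir100hg-led and Spink4-led clusters held 22.1% and 8.11% in vehicle, and the Gkn2-led cluster, with 0 vehicle cells, 44.7% in takinib. The fibroblast-like, dendritic-like and T-like classes were each 1 cluster and have the values given above. Complex III had a lower ratio than all members in 9 of the 10 clusters.

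Within the neutrophil-like cluster led by Ctsk the direction was the opposite of the class value. Its 263 vehicle cells had 2.23% of UMIs from members and its 265 takinib cells 3.39%, a log2 ratio of 0.60 [0.56, 0.64]. Of the 76 members past the filter, 74 were above 0, against 54.3% of all genes, and 44 were higher by at least 1.5-fold, against 18.3%. Atp5g3 stood at 345 CPM in vehicle and 1021.6 CPM in takinib (1.54 [1.27, 1.87]), Cox4i1 at 695 and 1579.0 CPM (1.17 [0.97, 1.40]) and Sdha at 64.8 and 209 CPM (1.55 [1.02, 2.43]). Ndufaf8, a complex I assembly factor, and Ndufs8, an iron-sulphur subunit, were the 2 below 0, at -0.63 and -0.08, and Ndufaf8 the 1 lower by at least 1.5-fold, against 13.2%. Median depth was alike, 1214 and 1268 UMIs, while mitochondrial UMIs made up 14.1% and 2.95%. Summed neutrophil markers stood at 40943.1 and 52938.8 CPM, macrophage markers at 2206.5 and 2103.3 CPM, and acinar markers at 683 and 60.1 CPM; the part of these in the result was not tested.

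**Figure D4:**
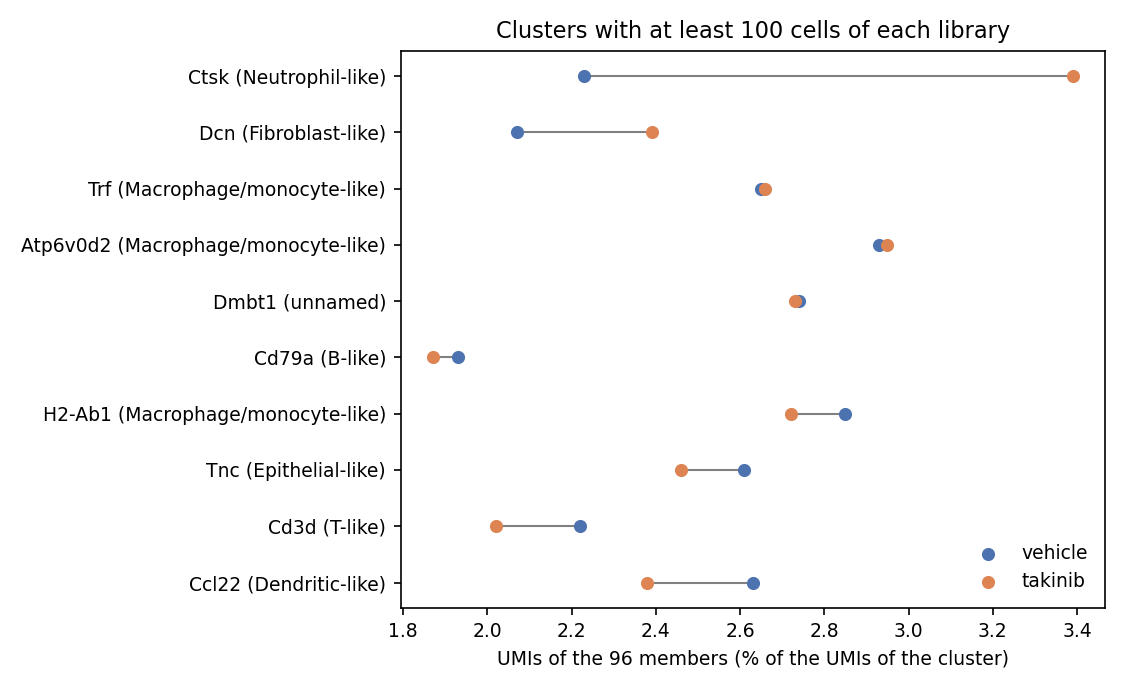
Share of UMIs from the 96 members (percent, axis not from 0) in the 10 clusters that hold 100 or more cells from both libraries, labelled by leading gene and class; blue is vehicle, orange is takinib, and the line joins them. The Ctsk-led neutrophil-like cluster runs from 2.23% to 3.39%, while the Trf-led and Atp6v0d2-led clusters barely differ.

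The 13 protein genes encoded in mitochondrial DNA, whose products join the same complexes, differed far more between the libraries than the nuclear members. In macrophage/monocyte-like cells they summed to 77738.5 CPM in vehicle but 28115.6 CPM in takinib, a log2 ratio of -1.47, and over the classes it ranged from -0.81 in epithelial-like to -2.99 in neutrophil-like cells. All 13 were below 0 in every class compared except mt-Nd6 in epithelial-like cells, at 0.12. Over all kept cells there were 2.92 mitochondrially encoded UMIs for each member UMI in vehicle and 1.18 in takinib, and the ratio was lower in takinib in all 8 classes. In fibroblast-like cells it was 3.29 in vehicle and 0.876 in takinib, while the nuclear members were higher. Over non-mitochondrial UMIs alone, the summed member ratio was -0.26 in macrophage/monocyte-like, -0.29 in T-like, -0.47 in B-like and 0.14 in fibroblast-like cells. Among cells with at most 10% mitochondrial UMIs it was -0.24, -0.59, -0.69 and 0.12 in the same classes.

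Nuclear members made up a smaller share of all UMIs in cells with more mitochondrial UMIs, in the classes with several bins other than takinib neutrophil-like cells. Mitochondrial UMIs are part of that total, which by itself lowers this share. In vehicle macrophage/monocyte-like cells it was 3.07% in cells with up to 5% mitochondrial UMIs, 2.90% from 5% to 10% and 2.28% from 10% to 20%. In takinib the same bins gave 2.50%, 2.06% and 1.37%, so at matched mitochondrial share the takinib cells were lower in each bin. They sat partly in other clusters. Of the takinib class, 41.3% were in the U90926-led cluster, against 1.37% in vehicle. The Atp6v0d2-led, Trf-led and H2-Ab1-led clusters held 21.7%, 8.77% and 4.52% of it, and within these the summed log2 ratio was 0.01, 0.01 and -0.07. In the lowest bin, epithelial-like cells had 2.94% in vehicle and 2.54% in takinib, and the Dmbt1-led cluster 3.50% and 2.77%. Fibroblast-like cells in that bin had 2.38% in vehicle (148 cells) and 2.46% in takinib (274 cells), closer together than 2.07% and 2.39% over all cells. Takinib neutrophil-like cells stood at 0.993%, 0.980% and 1.06%. Over non-mitochondrial UMIs, vehicle macrophage/monocyte-like cells had 3.21%, 3.12% and 2.62% from the lowest bin up, and takinib ones 2.57%, 2.19% and 1.57%. The first step was then absent in vehicle epithelial-like cells, at 3.03%, 3.05% and 2.04%. Takinib B-like cells barely differed between their bins, at 1.58% and 1.57%.

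**Figure D5:**
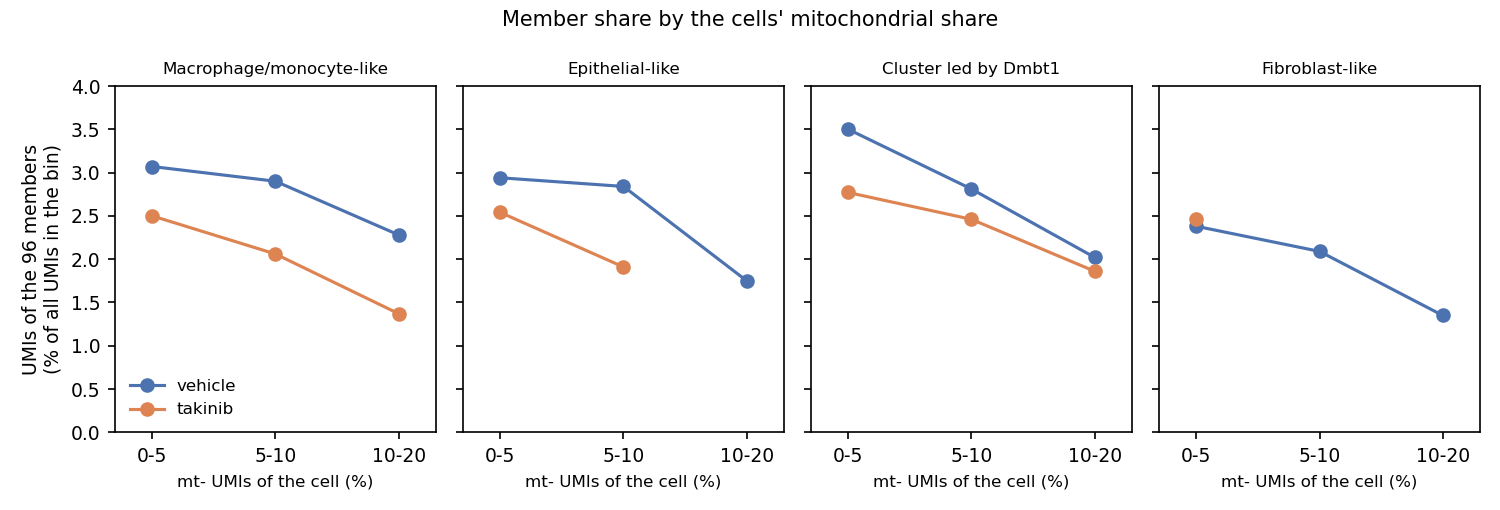
Share of UMIs from the 96 members (vertical axis, percent) in cells binned by their mitochondrial UMIs (horizontal axis, percent) in 4 classes; each point pools the cells of 1 bin with at least 50 cells. In macrophage/monocyte-like cells vehicle lies above takinib in each bin, and in fibroblast-like cells the lowest bins lie at 2.38% and 2.46%.

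Other genes of the pathway were read from fixed lists. Of 12 further electron carriers and transporters, 10 were above 0 among fibroblast-like cells (median 0.60, against -0.11 for all genes). Cycs, cytochrome c itself, stood there at 145 CPM in vehicle and 272 CPM in takinib (0.87), Slc25a3, the phosphate carrier, at 280 and 503 CPM (0.83), and Slc25a5, an ADP/ATP carrier, at 143 and 235 CPM (0.68). Slc25a4, another ADP/ATP carrier, went the other way at 206 and 132 CPM (-0.60). In macrophage/monocyte-like cells the same list had a median of 0.03, with Ucp2, an inner-membrane carrier, at 1239.5 and 812 CPM (-0.60). The mitochondrial ribosome list had 71 of 78 genes above 0 in fibroblast-like cells, a median of 0.37, and 27 of 78 in macrophage/monocyte-like cells, a median of -0.06, where 46.2% of all genes were above 0. The cytosolic ribosome list stood at a median of 0.46 in fibroblast-like cells, with 80 of 83 above 0, and at -0.10 in macrophage/monocyte-like cells.

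Genes of the tricarboxylic acid cycle, which supplies the electrons, had a median of 0.05 in fibroblast-like cells with 10 of 16 above 0, and -0.11 in macrophage/monocyte-like cells with 4 of 16 above 0. The assembly list for complexes III, IV and V had medians of -0.05 and -0.08 in the same 2 classes, and coenzyme Q synthesis -0.03 and 0.05. Among 12 regulators of mitochondrial gene expression, 8 passed the filter, with a median of -0.06, in fibroblast-like cells. Nrf1 stood there at 15.4 and 15.1 CPM, Gabpa at 28.2 and 25.6 CPM and Tfam, which packages mitochondrial DNA, at 20.1 and 22.4 CPM. In fibroblast-like cells most carriers and both ribosome lists thus also lay higher in takinib, with the regulators' transcripts at -0.65 to 0.14. The cytosolic ribosome list was not higher in that class alone. Its median was 0.37 in T-like, 0.38 in dendritic-like and 0.35 in epithelial-like cells, where the summed members were lower in takinib.

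Transcript length and overlaps were looked at as properties of the members. Members no longer than the median of 936 bases had a median ratio of -0.18 in macrophage/monocyte-like cells and longer ones -0.08, and the values were 0.12 and 0.29 in fibroblast-like cells. Spearman's rho across the genes was 0.31 and 0.23, a description over genes that share libraries. Of the 96 gene models, 43 overlap another gene model, 12 of them on the same strand, and reads there may be shared.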

How the data were processed

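Single-cell RNA was measured in 1 vehicle and 1 takinib library. The deposited matrices hold UMI counts, not normalized, for each gene in each barcode; per the file headers the authors made them with Cell Ranger 4 for vehicle and 6.1.1 for takinib, whereas the submitters' processing notes name Cell Ranger 2.1.1, bcl2fastq, STAR 2.0.4b, Subread, featureCounts 1.45 and mm10. The takinib matrix listed no barcode under 500 UMIs and the vehicle matrix listed 704261 barcodes, so filtering differed before deposit.

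Barcodes with at least 1000 UMIs, 500 genes and at most 20% mitochondrial UMIs were kept. Scrublet removed 314 vehicle doublets; in takinib its threshold marked 0.00373% and the 6% with the highest scores, 1607, were removed. Both libraries were clustered together (scanpy 1.11.5, 2000 variable genes, 30 components, 15 neighbours, Leiden resolution 1, no integration). Clusters were named from marker lists by a scoring rule set after seeing the data. Counts were summed per class and library; shares have exact Clopper-Pearson, sums exact Poisson and ratios exact conditional binomial 95% intervals. Scripts were tested on simulated data.

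Members and lists were chosen with earlier results of these data known. Named genes are subunit pairs, core subunits, the 3 highest and 3 lowest ratios per class, and the 5 members most restricted to a class in vehicle, with at least 50 counts there; others were chosen after their values were seen. A result under this rule is not reported here.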

Additional observations from a re-analysis of the deposited data

Results flagged for a closer look

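Fibroblast-like and macrophage/monocyte-like cells differed in direction: the summed members had a log2 ratio of takinib over vehicle of 0.21 in the former and -0.18 in the latter, and with 1 library per group this difference was not tested. The neutrophil-like cluster led by Ctsk had 0.60 while the neutrophil-like class as a whole had -1.15, which was not tested either. Vehicle barcodes of 1 to 99 UMIs, which enter no comparison, had 1.63% of their UMIs from members, above the limit that a count of 0 allows.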

How the results depend on the processing

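The log2 ratio of the summed members in each class was recomputed under each alternative, and the cause of a move was not tested. Values that moved beyond their counting interval follow. Over UMIs outside mitochondrial and ribosomal protein genes it was -0.60 in B-like, -0.09 in the Dmbt1-led cluster, -0.30 in macrophage/monocyte-like, -1.41 in neutrophil-like and -0.19 in T-like. With cells of at most 10% mitochondrial UMIs it was -0.69 in B-like, -0.16 in the Dmbt1-led cluster, -0.24 in dendritic-like, -0.27 in epithelial-like, 0.12 in fibroblast-like, -0.24 in macrophage/monocyte-like and -0.59 in T-like. With each cell thinned to 1000 UMIs it was -0.12 in B-like, 0.12 in the Dmbt1-led cluster, -0.10 in dendritic-like, -0.13 in epithelial-like, 0.17 in fibroblast-like, -0.14 in macrophage/monocyte-like, -1.11 in neutrophil-like and -0.07 in T-like. With each library clustered on its own it was -0.27 in B-like, -0.03 in epithelial-like, -0.11 in macrophage/monocyte-like and -0.90 in neutrophil-like. With every cluster named by its best score it was -0.02 in epithelial-like and -0.95 in neutrophil-like. As a mean over cells it was -0.13 in B-like, 0.12 in the Dmbt1-led cluster, -0.09 in dendritic-like, -0.15 in epithelial-like, 0.16 in fibroblast-like, -0.14 in macrophage/monocyte-like, -1.11 in neutrophil-like and -0.08 in T-like. With the median gene scaled to 0 it was -0.21 in B-like, 0.01 in the Dmbt1-led cluster, -0.10 in epithelial-like, 0.32 in fibroblast-like, -0.16 in macrophage/monocyte-like, -0.72 in neutrophil-like and -0.05 in T-like. With a minimum of 2000 UMIs and 1000 genes it was -0.63 in B-like, -0.17 in epithelial-like, 0.18 in fibroblast-like and -0.20 in macrophage/monocyte-like. Without doublet removal it was -0.04 in B-like, -0.28 in epithelial-like, 0.14 in fibroblast-like and -0.22 in macrophage/monocyte-like. Over non-mitochondrial UMIs it was -0.47 in B-like, -0.09 in the Dmbt1-led cluster, -0.24 in dendritic-like, -0.22 in epithelial-like, 0.14 in fibroblast-like, -0.26 in macrophage/monocyte-like, -1.34 in neutrophil-like and -0.29 in T-like. With the takinib neutrophil profile subtracted it was -0.08 in B-like, 0.06 in the Dmbt1-led cluster, -0.14 in epithelial-like, 0.27 in fibroblast-like, -0.13 in macrophage/monocyte-like and -0.06 in T-like. The vehicle cells that had Xist UMIs and no Y-linked UMIs numbered 88 of 627 in the Dmbt1-led cluster, 122 of 1097 in epithelial-like and 564 of 5041 in macrophage/monocyte-like. With only these vehicle cells the log2 ratio was 0.04, 0.03 and -0.13 in the same order. Within clusters, added after seeing the data, it was -0.04 in the B-like Cd79a-led cluster, -0.07, 0.01 and 0.01 in the H2-Ab1-led, Atp6v0d2-led and Trf-led macrophage/monocyte-like clusters, -0.09 in the Tnc-led epithelial-like cluster and 0.60 in the Ctsk-led neutrophil-like cluster. The sign turned in the Dmbt1-led cluster under 5 alternatives, in epithelial-like cells with Xist-bearing vehicle cells, and in the 3 clusters just given above 0; subunits alone gave values within the counting interval of the full set in all 8 classes. Fibroblast-like cells stayed above 0 and B-like, T-like, dendritic-like and macrophage/monocyte-like classes below 0 in every alternative over the whole class that gave a value. Counts of members that changed by over 1.5 times were as follows. With the median gene at 0, B-like members lower by 1.5-fold went from 14 to 5, fibroblast-like higher ones from 10 to 21 and those below 0 from 22 to 13, macrophage/monocyte-like higher ones from 0 to 1, and neutrophil-like members above 0 from 0 to 4. Over non-mitochondrial UMIs, lower ones went from 14 to 27 in B-like, 1 to 8 in T-like, 1 to 3 in the Dmbt1-led cluster and epithelial-like, and 1 to 2 in fibroblast-like and macrophage/monocyte-like cells; T-like higher ones went from 1 to 0; those above 0 went from 13 to 6 in B-like, 24 to 13 in macrophage/monocyte-like and 22 to 9 in T-like cells. Without the low-count filter, dendritic-like lower ones went from 6 to 11, higher ones from 1 to 3 in dendritic-like and T-like and 1 to 2 in B-like cells, and those above 0 from 13 to 22 in B-like and 0 to 3 in neutrophil-like cells. With 1 CPM added, higher ones went from 3 to 6 in the Dmbt1-led cluster, 1 to 3 in dendritic-like and 0 to 1 in macrophage/monocyte-like cells, and lower ones from 1 to 3 in epithelial-like, 1 to 2 in fibroblast-like and 1 to 4 in T-like cells. No value could be had for B-like, T-like, dendritic-like and neutrophil-like classes with Xist-bearing vehicle cells (under 30 cells), for neutrophil-like cells without doublet removal, with at most 10% mitochondrial UMIs or with at least 2000 UMIs, for T-like cells with at least 2000 UMIs, for dendritic-like cells with each library clustered on its own, or for the Dmbt1-led cluster where cells were clustered or named anew (without doublet removal, by library, by best score). The neutrophil profile was not taken out of neutrophil-like cells. No paired analysis was possible because each group has 1 library. No value has a replicate check, and takinib holds no empty droplets to measure free RNA.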
